A study of Mus musculus with 15 samples.

Results

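The oligoadenylate synthetase (Oas) family was followed through 5 genes, Oas1a, Oas2, Oas3, Oasl1 and Oasl2, which are 5 of the 10020 rows of the exon table. They were chosen by gene symbol, and all 5 had values in all 15 libraries. Oas3, Oasl1 and Oasl2 were also among the 560 genes with whole-gene values. The cells were bone marrow-derived macrophages of C57BL/6 mice, grown from the marrow of mice of mixed sex in medium with M-CSF, the growth factor that drives macrophage differentiation. They had received 100 ng/ml lipid A, the membrane anchor of bacterial lipopolysaccharide and the ligand of Toll-like receptor 4, for 15, 30, 60 or 120 min, or were unstimulated (0 min). At each time RNA was taken from the cytoplasm, from the soluble nucleoplasm and from the chromatin pellet, which holds RNA still attached to its gene. Each of the 3 fractions at each of the 5 times was 1 library, so differences between times have no replicate check.

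Oas enzymes bind double-stranded RNA and join ATP into short 2-5A chains as a signal of viral infection. Their genes are classical targets of type I interferon, the cytokine family of the antiviral response. Oas1a, Oas2 and Oas3 make 2-5A, and so does mouse Oasl2, which also carries ubiquitin-like domains. Mouse Oasl1 has no synthetase activity and is known to hold back translation of Irf7, the regulator that amplifies interferon production. In the RefSeq gene order of mouse assembly GRCm38, Oas1a, Oas2 and Oas3 lie in 1 cluster with the other Oas1 genes on chromosome 5, and Oasl1 and Oasl2 are neighbours elsewhere on that chromosome.

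RefSeq promoter windows were matched for 4 of the 5 members, all but Oas2, and these differed in exact matches to an interferon motif. The windows below run from 250 bases before to 50 bases after the RefSeq start (build GRCm38.p6) and are printed because these genes share the higher 120 min levels described next. Capitals mark each match to the core of the interferon-stimulated response element, the letters GAAANNGAAA on either strand. The windows are chr5:120907476-120907775 (minus strand) for Oas1a, chr5:120777610-120777909 (minus strand) for Oas3, chr5:114922990-114923289 (plus strand) for Oasl1 and chr5:114896684-114896983 (plus strand) for Oasl2.
Oas1a: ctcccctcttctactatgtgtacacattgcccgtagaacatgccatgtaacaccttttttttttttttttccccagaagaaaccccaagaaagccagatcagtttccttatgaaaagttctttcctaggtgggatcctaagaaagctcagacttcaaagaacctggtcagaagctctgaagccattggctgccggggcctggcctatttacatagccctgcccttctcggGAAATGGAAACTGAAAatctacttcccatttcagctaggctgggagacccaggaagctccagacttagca
Oas3: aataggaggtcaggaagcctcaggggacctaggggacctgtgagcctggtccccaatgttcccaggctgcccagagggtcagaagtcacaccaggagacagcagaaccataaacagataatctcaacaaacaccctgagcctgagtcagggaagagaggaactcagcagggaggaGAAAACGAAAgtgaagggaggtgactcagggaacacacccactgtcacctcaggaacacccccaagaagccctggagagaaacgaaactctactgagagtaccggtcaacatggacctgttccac
Oasl1: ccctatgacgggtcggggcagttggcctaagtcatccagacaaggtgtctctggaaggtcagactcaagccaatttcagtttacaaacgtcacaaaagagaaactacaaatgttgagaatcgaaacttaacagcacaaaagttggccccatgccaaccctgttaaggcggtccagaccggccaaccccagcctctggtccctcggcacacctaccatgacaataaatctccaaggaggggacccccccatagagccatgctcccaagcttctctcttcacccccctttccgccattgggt
Oasl2: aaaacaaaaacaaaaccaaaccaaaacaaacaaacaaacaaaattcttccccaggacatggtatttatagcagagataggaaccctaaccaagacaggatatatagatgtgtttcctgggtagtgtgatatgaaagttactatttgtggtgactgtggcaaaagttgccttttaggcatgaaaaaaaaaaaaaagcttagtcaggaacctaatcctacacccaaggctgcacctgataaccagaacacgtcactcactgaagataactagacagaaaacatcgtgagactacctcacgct
Oas1a held 2 overlapping matches, which began 20 and 14 bases before the start. Oas3 held 1 match, which began 75 bases before the start. The same letters occur in 3.44% of the 32851 RefSeq promoters of this length. The Oasl1 and Oasl2 windows did not hold these letters. Inexact matches were not looked for, so the search does not show that these windows lack such an element. The ratio of observed to expected CpG was 0.188 for Oas1a, 0.136 for Oas3, 0.397 for Oasl1 and 0.270 for Oasl2, against a median of 0.384 over all promoters. In the authors' deposited table, Oas3, Oasl1 and Oasl2 carry the promoter type LCG and the classes F, D and E in that order.

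All libraries were deep enough to count the members. They held 15.6 to 19.9 M reads in cytoplasmic, 24.5 to 31.4 M in nucleoplasmic and 38.8 to 52.3 M in chromatin RNA, as recovered from the deposited values. The fewest exon reads of a member in a library were 68, for Oasl1 in cytoplasmic RNA at 0 min. Nuclear RNA markers summed to 17.7 to 46.6 RPKM in cytoplasmic and 1516 to 2522 RPKM in chromatin libraries. All 9 macrophage markers were listed, with summed levels of 1350 to 2802 RPKM in cytoplasmic, 8717 to 11917 RPKM in nucleoplasmic and 1293 to 1964 RPKM in chromatin RNA. Of other cell types, 0 of 5 plasmacytoid dendritic and 0 of 5 erythroid markers were listed, and 2 T cell markers of 6 reached a sum of 3.53 RPKM at most. The highest sums elsewhere were 67.8 RPKM for 6 neutrophil markers of 8, 10.5 RPKM for 1 B cell marker of 5, 1.80 RPKM for 1 stromal marker of 5 and 1.30 RPKM for 1 dendritic marker of 4. A T cell and a stromal marker were, like the Oas genes, higher at 120 min than at 0 min in all 3 fractions. Lck, a T cell kinase, had 3.24 RPKM at 120 min against 0.0910 at 0 min in cytoplasmic RNA. Its 120 min level was 26.9-fold the 0 min level in nucleoplasmic (8.93 to 133, 95% exact counting interval) and 74.7-fold in chromatin RNA (20.3 to 624). Pdgfrb, a receptor of stromal cells, had 1.80 against 0.0435 RPKM in nucleoplasmic, 0.419 against 0.0949 RPKM in cytoplasmic and 0.830 against 0.0121 RPKM in chromatin RNA. The 0 min values of Lck and Pdgfrb rest on 2 to 8 reads, and neither gene reached 1 RPKM in any library before 120 min. Cd4, the other listed T cell marker, was not higher at 120 min in any fraction. Its 120 min level was 0.456-fold the 0 min level in chromatin (0.196 to 0.978) and 0.477-fold in nucleoplasmic RNA (0.319 to 0.706). In cytoplasmic RNA it was 0.883-fold (0.425 to 1.85). The T cell markers Cd3d, Cd3e, Cd3g and Cd8a and the stromal markers Col1a1, Col1a2, Col3a1 and Dcn were not listed. The part of other cell types in the results was not tested. In bulk RNA, fewer cells of a type and less RNA per cell cannot be told apart.

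Lipid A was followed by higher levels of all 5 genes at 120 min in each fraction, and Oasl1 stood apart in size and in time. Levels are exon RPKM, reads relative to exon length and library size. Between fractions they compare shares of a library, not amounts of RNA in the cell. A gene was called higher or lower where RPKM + 0.5 differed by 4-fold or more from the 0 min library of its fraction, a log2 ratio of 2 or more. In cytoplasmic RNA 1 of 5 members was called higher at any time, against 4.48% of 9239 genes, and in nucleoplasmic RNA 1 of 5, against 4.84% of 9317 genes. In chromatin RNA 3 of 5 were called higher, against 6.51% of 8881 genes. None of the 5 was called lower, a call made for 1.88% of genes in cytoplasmic, 2.81% in nucleoplasmic and 3.91% in chromatin RNA. At 120 min the members' median log2 ratio was 1.35 in cytoplasmic, 1.51 in nucleoplasmic and 2.26 in chromatin RNA, against all-gene medians of -0.49, -0.47 and -0.34 in the same order.

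**Figure D1:**
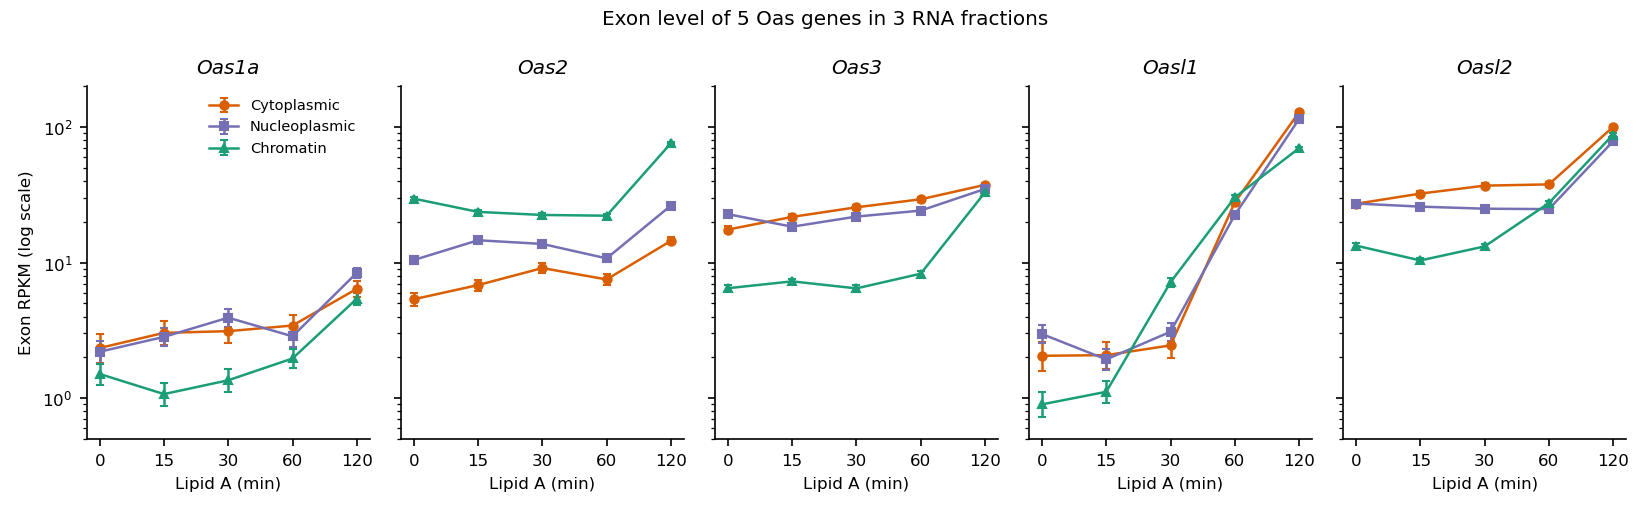
Exon RPKM (log axis) of each Oas gene at 0, 15, 30, 60 and 120 min of lipid A, with 1 line per fraction and bars for the 95% counting interval of each library. In chromatin RNA Oasl1 leaves its 0 min level at 30 min, whereas Oas2 and Oas3 exceed theirs by 2-fold or more only at 120 min.

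Oasl1 had the largest change of the 5 genes, from a starting level below 3 RPKM in each fraction. In cytoplasmic RNA it had 2.05, 2.08, 2.45, 27.7 and 128 RPKM at 0, 15, 30, 60 and 120 min. In nucleoplasmic RNA the levels at the same times were 2.97, 1.93, 3.09, 22.4 and 114 RPKM, and in chromatin RNA 0.901, 1.12, 7.16, 30.2 and 69.6 RPKM. The chromatin level was thus already raised at 30 min, when the cytoplasmic and nucleoplasmic levels still lay near their 0 min values. At 30 min the chromatin level was 7.94-fold its 0 min value (95% interval 6.35 to 10.0, exact, for counting error only), on 641 reads against 88. Oasl1 was the only member called at 30 min, against 2.15% of genes in chromatin RNA, and the only one at 60 min, against 2.53%. In cytoplasmic RNA it was 1.19-fold its 0 min value at 30 min (0.862 to 1.66) and was first called at 60 min, against 2.63% of genes. In nucleoplasmic RNA it was also first called at 60 min, against 2.10% of genes.

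By 120 min Oasl1 was among the most changed genes of every fraction. It stood 62.4-fold above 0 min in cytoplasmic RNA (49.1 to 80.4), rank 24 of 9239 genes by log2 ratio. In nucleoplasmic RNA the fold was 38.4 (32.8 to 45.1), rank 51 of 9317, and in chromatin RNA 77.2 (62.6 to 96.5), rank 29 of 8881. At 60 min its chromatin change, 33.5-fold (27.1 to 41.9), ranked 22. Oasl1 was the only member called at 120 min in cytoplasmic RNA, against 3.36% of genes, and in nucleoplasmic RNA, against 4.07%. Its share of the summed RPKM of the 5 genes was 44.8% at 120 min and 3.78% at 0 min in cytoplasmic RNA. In chromatin RNA that share was 25.6% at 120 min and 1.74% at 0 min.

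Oasl2, the neighbour of Oasl1, started from a much higher level and changed later. In cytoplasmic RNA it had 27.1, 32.2, 36.9, 37.7 and 99.9 RPKM from 0 to 120 min. The nucleoplasmic levels were 27.2, 25.8, 24.9, 24.8 and 78.3 RPKM and the chromatin levels 13.3, 10.4, 13.1, 27.4 and 87.8 RPKM. The chromatin library of 60 min lay above the 3 earlier ones, whereas the nucleoplasmic library of 60 min did not. At 60 min the fold over 0 min was 1.39 in cytoplasmic (1.30 to 1.49), 0.910 in nucleoplasmic (0.855 to 0.968) and 2.06 in chromatin RNA (1.94 to 2.18). The all-gene median log2 ratios at 60 min were 0.39, -0.18 and -0.47 in that order. Rescaled means here that each library was shifted to an all-gene median ratio of 0. The rescaled Oasl2 log2 ratios at 60 min were 0.08, 0.05 and 1.48, so only the chromatin one lay far from the median gene. At 120 min the Oasl2 fold was 3.69 in cytoplasmic (3.47 to 3.91), 2.88 in nucleoplasmic (2.74 to 3.02) and 6.59 in chromatin RNA (6.27 to 6.92). Only the chromatin value passed 4-fold, where 5.19% of genes were called at 120 min. The rescaled cytoplasmic log2 ratio at 120 min was 2.35 and passed as well.

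Oas3, the longest enzyme of the family, changed by unequal amounts in the 3 fractions. In cytoplasmic RNA it had 17.5, 21.7, 25.5, 29.3 and 37.4 RPKM from 0 to 120 min. It had 22.7, 18.4, 21.8, 24.1 and 34.8 RPKM in nucleoplasmic RNA and 6.47, 7.27, 6.45, 8.27 and 32.9 RPKM in chromatin RNA. The chromatin levels of 0 to 60 min lay between 6.45 and 8.27 RPKM, and the library of 120 min stood well above them. At 60 min the Oas3 chromatin fold was 1.28 (1.19 to 1.38), with a rescaled log2 ratio of 0.80. Its 120 min fold was 2.14 in cytoplasmic (2.003 to 2.28), 1.53 in nucleoplasmic (1.46 to 1.61) and 5.08 in chromatin RNA (4.80 to 5.39), where it was called. The 3 fractions, apart at 0 min, ended within 32.9 to 37.4 RPKM.

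Oas2 was higher in chromatin RNA than in the other fractions. Its chromatin levels of 29.6, 23.6, 22.4, 22.1 and 75.7 RPKM from 0 to 120 min exceeded its levels elsewhere at each of the 5 times. It had 5.36, 6.82, 9.11, 7.51 and 14.4 RPKM in cytoplasmic and 10.4, 14.6, 13.7, 10.7 and 26.3 RPKM in nucleoplasmic RNA. The 120 min folds were close to each other, 2.69 in cytoplasmic (2.38 to 3.06), 2.52 in nucleoplasmic (2.35 to 2.71) and 2.56 in chromatin RNA (2.48 to 2.64). None reached 4-fold. In chromatin RNA the 60 min fold was 0.749 (0.717 to 0.781), where the all-gene median log2 ratio was -0.47, and the rescaled log2 ratio of Oas2 was 0.06. An annotated gene on the opposite strand, Gm43068, lies over part of Oas2. The libraries were strand-specific, but whether counting used the strand is not given in the sources used here.

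Oas1a had the lowest level of the 5 genes at 120 min in every fraction, though not the smallest fold. It had 2.35, 3.03, 3.12, 3.43 and 6.40 RPKM in cytoplasmic, 2.20, 2.83, 3.92, 2.86 and 8.40 RPKM in nucleoplasmic and 1.51, 1.07, 1.36, 1.96 and 5.41 RPKM in chromatin RNA. The library of 120 min was the highest in each fraction. The 120 min folds of 2.73 in cytoplasmic (2.08 to 3.62), 3.82 in nucleoplasmic (3.09 to 4.75) and 3.59 in chromatin RNA (2.94 to 4.40) were not called, and rescaled values passed 4-fold in nucleoplasmic RNA alone, at a log2 ratio of 2.19. Its values are uncertain, because 57.6% of the 50-base windows of its transcript also occur in Oas1g. No window of the Oas2, Oasl1 or Oasl2 transcripts occurred in another gene.

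The order of the members therefore changed over time. Oasl2 was the highest of the 5 in cytoplasmic and nucleoplasmic RNA from 0 to 60 min, and Oasl1 was the highest in both at 120 min. In chromatin RNA Oas2 was the highest from 0 to 30 min, Oasl1 at 60 min and Oasl2 at 120 min. The chromatin levels of Oasl1 and Oasl2 at 60 min, 30.2 and 27.4 RPKM, had intervals that did not overlap, but no replicate gives the spread of either. Summed over the 5 genes, the 120 min library held 286 RPKM and the 0 min library 54.4 RPKM in cytoplasmic RNA. The 120 min and 0 min sums were 262 and 65.6 RPKM in nucleoplasmic and 271 and 51.8 RPKM in chromatin RNA.

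The fractions were compared over the 5 times with limma on log2(RPKM + 0.5), in which Oas2 was lower outside chromatin, where the all-gene median was above 0, and Oas3 was higher, as many genes were. Time was a term, so fractions were paired by their time label and the adjusted p-values rest on what varied between fractions within times. No fraction and time was replicated. Without the time term, variation between times counts as error, and the members' adjusted p-values are larger. Oas2 averaged 3.12 ± 0.51 in cytoplasmic and 4.95 ± 0.74 in chromatin RNA on the log2 scale (SD, n = 5 times each). The difference was -1.84 (SE 0.19, limma adjusted p = 6.04e-09), with the cytoplasmic level higher at 0 of 5 times. Without the time term the adjusted p was 0.000281. Oas2 was the only member called lower in cytoplasmic than chromatin RNA at 2-fold and an adjusted p under 0.05, against 5.14% of 9441 genes. Oas3 averaged 4.70 ± 0.41 in cytoplasmic and 3.35 ± 0.97 in chromatin RNA, a difference of 1.35 (SE 0.22, limma adjusted p = 5.98e-06), higher at 5 of 5 times. Without the time term the adjusted p was 0.00493. Oas3 was the only member called higher, but 40.7% of all genes were called so and the all-gene median difference was 0.76. Centring each library on its median left 0.55 and no call.

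**Figure D2:**
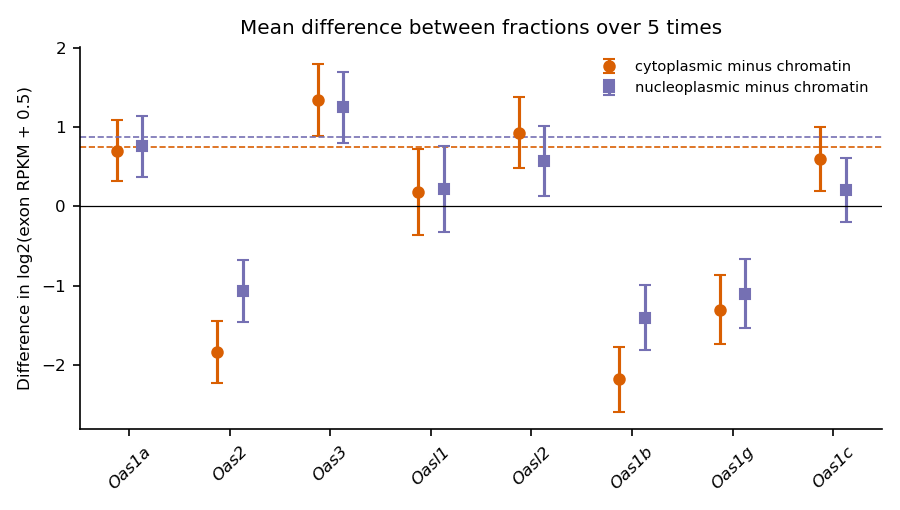
Mean difference in log2(exon RPKM + 0.5) between cytoplasmic or nucleoplasmic RNA and chromatin RNA over 5 times, with 95% limma intervals, for the 5 members and 3 other Oas1 genes. Dashed lines are the all-gene medians of 0.76 and 0.88; Oas2, Oas1b and Oas1g lie below 0 in both comparisons.

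Nucleoplasmic and chromatin RNA differed for the same pair of genes. Oas2 was lower in nucleoplasmic RNA by a log2 difference of -1.07 (SE 0.19, limma adjusted p = 2.06e-05), the only member among 2.28% of genes called lower. Without the 0 min libraries the difference was -0.97 and without the 120 min libraries -0.96, just short of 2-fold. Oas3 was higher by 1.25 (SE 0.22, limma adjusted p = 1.55e-05), the only member among 44.1% of genes called higher, and by 0.39 after centring, without a call. Between cytoplasmic and nucleoplasmic RNA 0 of 5 members were called, against 4.66% of genes higher and 16.6% lower. Oas2 came nearest at -0.77 (SE 0.19, limma adjusted p = 0.00166), lower at all 5 times, with an adjusted p of 0.105 without the time term.

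Oas1a, Oasl1 and Oasl2 were not called in any of these comparisons. Oasl2 was higher in cytoplasmic than chromatin RNA by 0.94 (SE 0.22, limma adjusted p = 0.000401), and passed 2-fold without the 60 min libraries, at 1.06, or without the 120 min libraries, at 1.12. Centred libraries left 0.14 for Oasl2 (limma adjusted p = 0.604), and without the time term its adjusted p was 0.133. Oas1a differed by 0.71 (SE 0.19), below the all-gene median, and turned to -0.09 after centring. Its limma adjusted p was 0.00167 with and 0.114 without the time term. For Oasl1 the difference was 0.18 (95% interval -0.36 to 0.72, limma adjusted p = 0.533), with the cytoplasmic level higher at 3 of 5 times, and -0.62 after centring.

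The mean over times hides a course in the Oasl1 ratio. Its cytoplasmic level was 2.28, 1.86, 0.342, 0.919 and 1.84 times its chromatin level at 0, 15, 30, 60 and 120 min. The all-gene median ratio over the same times was 1.43, 1.59, 2.13, 2.60 and 1.42. At 30 min the Oasl1 ratio had a counting interval of 0.272 to 0.427, below its intervals of 1.64 to 3.17 at 0 min and 1.77 to 1.91 at 120 min. Oasl2 had ratios of 2.03, 3.11, 2.80, 1.37 and 1.14, and lay below the all-gene median at 60 and 120 min. The Oas3 ratios were 2.70, 2.99, 3.96, 3.54 and 1.14, lowest at 120 min. Oas2 stayed between 0.181 and 0.406 at all times.

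**Figure D3:**
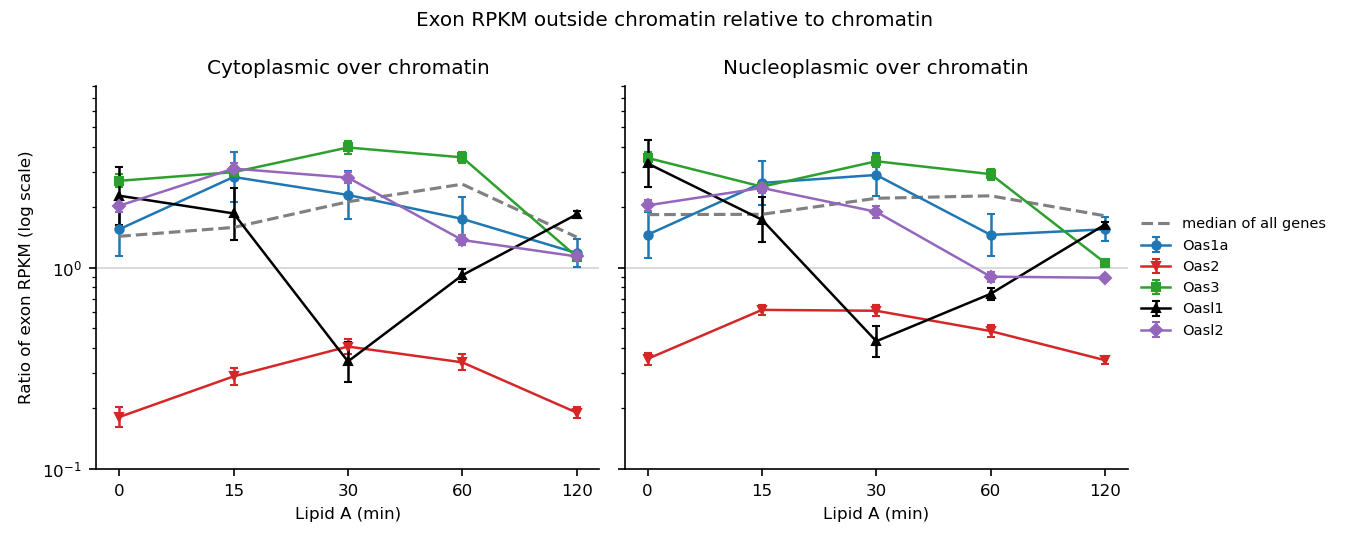
Ratio of exon RPKM (log axis) in cytoplasmic (left) or nucleoplasmic (right) RNA to chromatin RNA at each time, with 95% counting intervals; the dashed line is the median of all genes. Oasl1 dips to 0.342 at 30 min in the cytoplasmic panel, and Oas2 lies below 1 at every time.

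Reads outside exons were used to look at unspliced RNA of the 3 members with whole-gene values. Exon reads were subtracted from whole-gene reads, and 477 genes had both. In chromatin RNA 70.2%, 67.5%, 79.6%, 74.4% and 66.4% of Oasl1 reads lay outside exons at 0, 15, 30, 60 and 120 min. The median of these 477 genes, not of all genes, was 64.1%, 70.9%, 68.6%, 69.3% and 57.9%. In nucleoplasmic RNA the Oasl1 share was 14.4%, 28.7%, 64.4%, 40.7% and 17.9%, so it was highest at 30 min and returned towards its 0 min value. The 64.4% at 30 min had an exact interval of 59.8% to 68.8%, and the median of the 477 genes was 25.0% there. In cytoplasmic RNA the share was 4.23%, 11.9%, 22.9%, 3.51% and 2.01%, on only 71 to 118 whole-gene reads at the first 3 times.

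In nucleoplasmic RNA, Oasl1 reads outside exons were raised at a time when its exon reads were not. They were 11.2-fold their 0 min level at 30 min (7.55 to 17.3), on 295 reads against 27, when the exon level was 1.04-fold (0.831 to 1.30). In chromatin RNA the same reads were 13.2-fold higher at 30 min (11.5 to 15.3) and 64.9-fold at 120 min (56.6 to 74.9). A gene annotated on the opposite strand, Gm13822, overlaps the Oasl1 gene by 38 of 14676 bases in GENCODE vM21.

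The Oasl2 and Oas3 shares varied less over time than that of Oasl1 in nucleoplasmic and cytoplasmic RNA. The Oasl2 share in cytoplasmic RNA lay between 1.41% and 1.80%. In nucleoplasmic RNA it was 8.26%, 13.9%, 12.7%, 25.4% and 21.3% from 0 to 120 min, and in chromatin RNA 56.0%, 59.5%, 59.5%, 67.4% and 61.4%. At 60 min Oasl2 reads outside exons were 3.43-fold their 0 min level in nucleoplasmic RNA (2.92 to 4.05), while its exon level was 0.910-fold. At 120 min they were 8.63-fold (7.45 to 10.04) and the exon level 2.88-fold. The Oas3 share in chromatin RNA was 46.8%, 39.2%, 40.9%, 52.2% and 46.8%, below the median of the 477 genes at each time. In nucleoplasmic RNA it was 13.2% at 120 min and 5.50% at 0 min, with reads outside exons 4.02-fold higher (3.39 to 4.80). At 60 min the Oas3 reads outside exons were 1.57-fold their 0 min level there (1.28 to 1.94). In chromatin RNA they were 1.59-fold at 60 min (1.48 to 1.71).

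**Figure D4:**
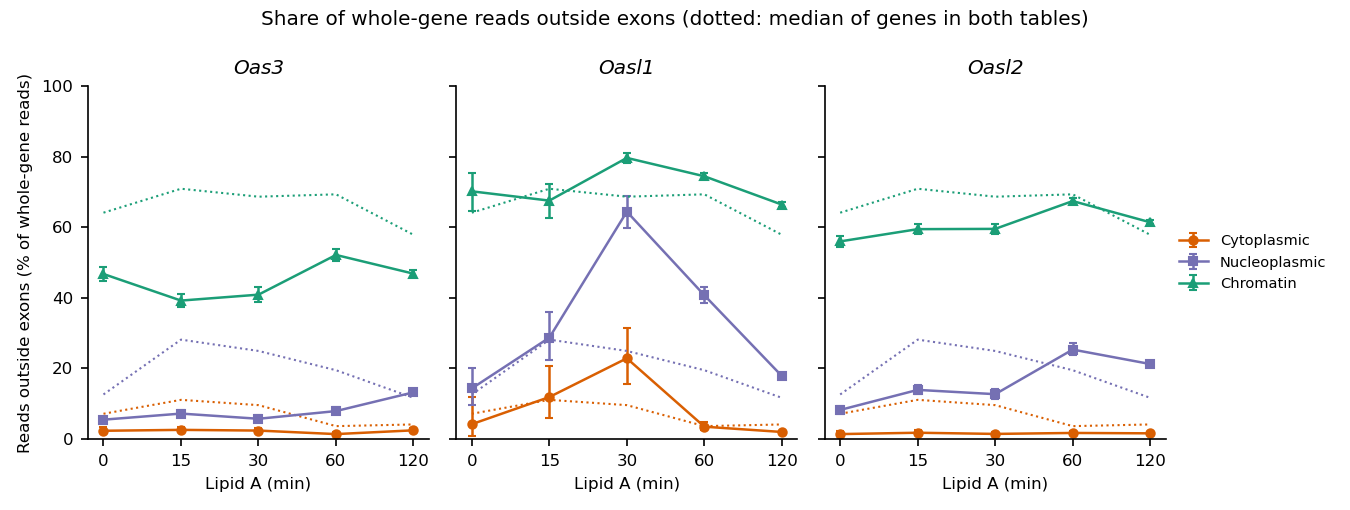
Percent of whole-gene reads outside exons for Oas3, Oasl1 and Oasl2 by time and fraction, with exact 95% intervals; dotted lines are the medians of genes in both tables. The nucleoplasmic share of Oasl1 reaches 64.4% at 30 min and is back at 17.9% at 120 min.

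The other Oas1 genes of the cluster were looked for, and 3 of 7 were listed. In cytoplasmic RNA 0 of 2 measured genes were called higher, in nucleoplasmic RNA 0 of 2 and in chromatin RNA 2 of 3, against 4.48%, 4.84% and 6.51% of all genes in the same order. None was called lower. Oas1b had 5.07, 4.11, 3.07, 5.35 and 28.9 RPKM in chromatin RNA from 0 to 120 min, and 0.838, 0.617, 0.623, 0.867 and 2.99 RPKM in cytoplasmic RNA. Oas1g, an enzyme close to Oas1a in sequence, had 6.39 RPKM in the 120 min and 1.17 RPKM in the 0 min library of chromatin RNA. Oas1c stayed between 0.160 and 1.03 RPKM there. Like Oas2, Oas1b was lower in cytoplasmic than chromatin RNA, by a log2 difference of -2.19 (SE 0.20, limma adjusted p = 6.69e-10). It was called, against 5.14% of genes. For Oas1g the difference was -1.31 (SE 0.21). Oas1g passed the filter of 1 RPKM in at least 3 libraries only through its chromatin levels. A test against chromatin RNA is therefore no separate evidence for Oas1g, and its difference is given as a description. The cytoplasmic levels of Oas1g were only 0.299 to 0.607 RPKM, on 10 to 24 reads, near the pseudocount of 0.5 RPKM. Those of Oas1b rested on 19 to 29 reads from 0 to 60 min. Oas1g shares 54.1% of its windows with Oas1a, so its values are uncertain too.

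Genes looked at for the fate of 2-5A were not called, as most genes were not. The genes looked at were Pde12, Akap7 and Enpp1, which can degrade 2-5A, and Abce1, known for ribosome recycling. Of these 4 genes, 3 reached 1 RPKM in cytoplasmic, 3 in nucleoplasmic and 4 in chromatin RNA, and 0 were called higher or lower in any fraction. Of all genes, 4.48%, 4.84% and 6.51% were called higher and 1.88%, 2.81% and 3.91% lower in the same order. At such shares, 0 calls among so few genes says little about them. At 60 min their median log2 ratio was 0.79 in cytoplasmic and 0.57 in nucleoplasmic RNA, above the 0.47 and 0.09 of the 5 members, and -0.34 in chromatin RNA, below the members' 0.33. Their median log2 ratio at 120 min was -0.05 in cytoplasmic, -0.03 in nucleoplasmic and -0.08 in chromatin RNA. Pde12 had 3.06, 2.65, 3.84, 7.22 and 3.80 RPKM in cytoplasmic RNA from 0 to 120 min, highest at 60 min. At that time the all-gene median log2 ratio in cytoplasmic RNA was 0.39 and that of Pde12 was 1.12.

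Other genes of the interferon response gave the setting of these changes. Of 26 other interferon-stimulated genes, 17 were called higher in cytoplasmic, 17 in nucleoplasmic and 22 in chromatin RNA, with 0 lower. Their median log2 ratios at 120 min were 2.66, 2.66 and 3.30 in the same order. For these and the lists below, the all-gene shares called higher were 4.48%, 4.84% and 6.51% in that order. The shares called lower were 1.88%, 2.81% and 3.91%. Of 11 double-stranded RNA sensors and effectors, 5 were called higher in cytoplasmic, 8 in nucleoplasmic and 8 in chromatin RNA. Ifih1, the sensor MDA5, had 6.20, 5.98, 33.6, 110 and 125 RPKM in chromatin RNA from 0 to 120 min, so it too was raised at 30 min. Of 10 type I interferon signalling genes, 3 were called higher in each fraction, Ifnb1, Irf7 and Irf1. Ifnb1, which encodes interferon-beta, had 0.0282, 0.124, 13.1, 22.1 and 2.38 RPKM in chromatin RNA over the same times. Irf7 had 7.81, 9.87, 10.7, 13.9 and 156 RPKM.

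**Figure D5:**
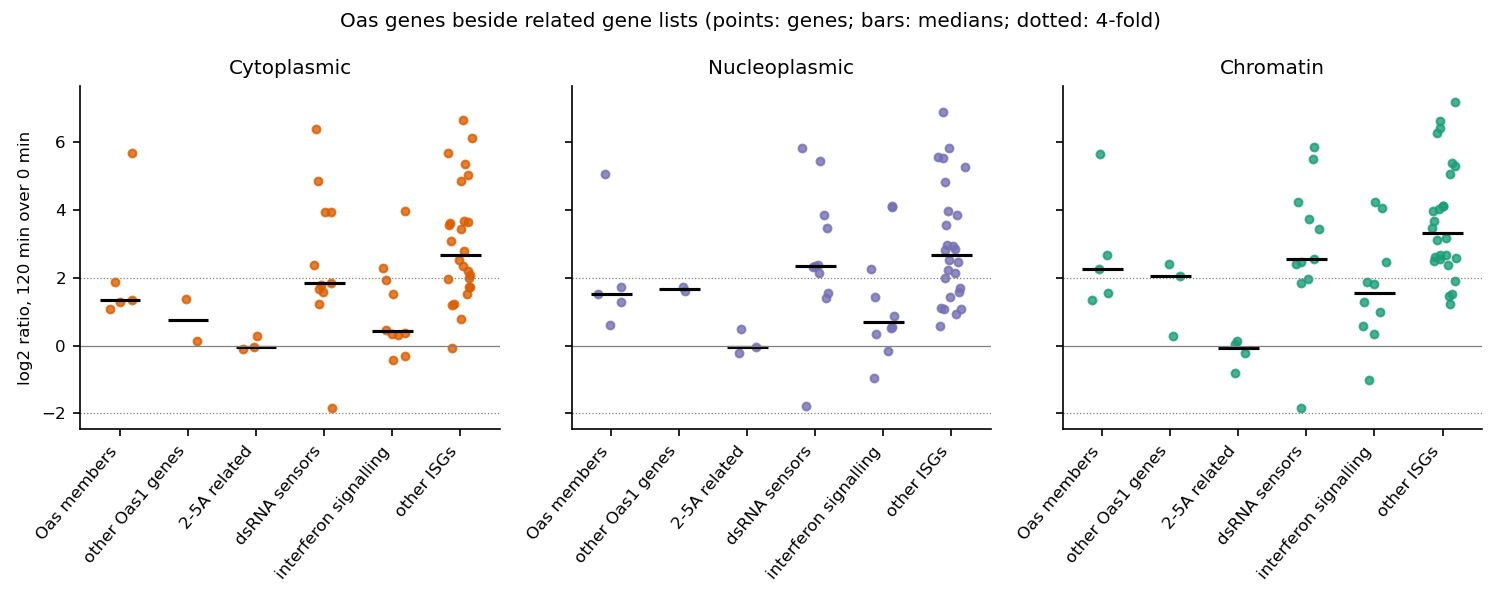
Log2 ratio of exon RPKM + 0.5 at 120 min over 0 min in each fraction, with 1 point per gene at 1 RPKM or more in some library of the fraction, bars for medians and dotted lines at 4-fold. The Oas members lie above 0 in all panels, with Oasl1 the highest of them in each.

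The genes whose profile over the 15 libraries was most like the mean of the members were named by Pearson's r, as a description. The libraries share fraction and time, so r carries no test. The members' log2 levels were averaged without scaling to equal spread, so Oasl1, which changed most, weighed most in the mean. The closest 10 were Cmpk2 (r = 0.98), Ifit1, Nod1, Gbp7, Ifit2, Prpf38a, Pfkfb3, Gbp2, Nt5c3 and Adora2a (r = 0.96). Cmpk2, a mitochondrial nucleotide kinase, had 692 RPKM in the 120 min and 9.66 RPKM in the 0 min library of cytoplasmic RNA. Against the same mean, which contains them, the members had r of 0.94 for Oasl1, 0.92 for Oasl2, 0.88 for Oas1a, 0.71 for Oas3 and 0.38 for Oas2. Between pairs of members r ran from -0.22 for Oas2 and Oas3 to 0.93 for Oas1a and Oasl2.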

How the data were processed

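RNA of 3 fractions at 5 times gave 15 libraries, which the labels assign to a fraction and a time. Per the labels' protocols, ribosomal RNA was depleted and strand-specific dUTP libraries were made. Reads were aligned with TopHat to mm9, per the submitters' processing notes; no label or header names the counting tool or annotation. The values are RPKM, which the authors deposited, per the file headers, relative to exon length in one table and, judged from the lengths recovered, to the whole gene in the other. Group numbers and classes were read from the authors' deposited tables, and 3 columns of values that match no sample were not used.

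Reads were recovered by finding the length that made all 15 values of a gene whole (tolerance 0.02 reads, wider for large values), which succeeded for 10020 and 560 genes and was tested on simulated data. Values without reads, 318 of them in the exon rows, had been filled with what 1 read was worth in the 15 min chromatin library. Counting intervals are exact, at 95%, and cover counting error only.

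Ratios to 0 min used a pseudocount of 0.5 RPKM and a minimum of 1 RPKM in 1 or more libraries of a fraction. The fraction contrasts were fitted in limma 3.58.1 (R 4.3.3; trended prior, time as a term, 9441 genes at 1 RPKM in at least 3 libraries, Benjamini-Hochberg adjustment over all of them, 2-fold). Alternatives were pseudocounts of 0.1 and 1 RPKM, no filter, shifted or centred libraries, no time term and each time left out. Promoter windows come from RefSeq. Named genes were all members, genes of the lists that a count names, and the 10 other genes with the most similar profile. The members and lists were chosen with earlier results of these data known. Some genes and a motif of the lists are not reported here.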

Additional observations from a re-analysis of the deposited data

How the results depend on the processing

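At 120 min all 15 log2 ratios of the members, 5 genes in 3 fractions, stayed above 0 under the 45 alternative values computed. The number of members called 4-fold higher was 2 in nucleoplasmic and 2 in cytoplasmic RNA with libraries shifted to a median ratio of 0, against 1 each, through Oas1a and Oasl2. In chromatin RNA it was 1 without the 120 min library, against 3. The number that differed between fractions was 1 with centred libraries in cytoplasmic against chromatin and in nucleoplasmic against chromatin RNA, against 2 each. Leaving out a time gave 1 to 2 in nucleoplasmic against chromatin RNA. The other 41 of 48 alternative counts lay within 1.5 times the main count.

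Directions that turned belong to differences without a call. With centred libraries the log2 difference was -0.094 for Oas1a and -0.62 for Oasl1 in cytoplasmic against chromatin RNA, and -0.10 for Oas1a, -0.64 for Oasl1 and -0.29 for Oasl2 in nucleoplasmic against chromatin RNA. Between nucleoplasmic and chromatin RNA Oasl1 ran from -0.054 without the 0 min to 0.55 without the 30 min libraries. In cytoplasmic against nucleoplasmic RNA centring gave 0.0059 for Oas1a and 0.025 for Oasl1. There, with 1 time left out, Oas1a ran from -0.12 (60 min) to 0.024 (120 min), with 0.0049 for 30 min, and Oasl1 from -0.12 (60 min) to 0.067 (0 min), with 0.027 for 30 min. The cause was not tested. The time term pairs the fractions by time; without it the counts of members that differ stood at 2, 2 and 0, as with it, while the adjusted p of Oas1a and Oasl2 in cytoplasmic against chromatin RNA exceeded 0.05, at 0.114 and 0.133. Depth limits the early cytoplasmic values of Oasl1 most.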

Other observations

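In the authors' deposited table the members fall into 4 expression groups: Oasl1 in group 2, Oas1a and Oasl2 in group 3, Oas2 in group 7 and Oas3 in group 10.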
